A study of Homo sapiens with 36 samples.

Results

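MAT2A and 8 other genes of the methionine cycle were followed in HEK293T cells, a human embryonic kidney line, under arsenite and hydrogen peroxide. The 9 genes were taken by name from a table of 61587 genes, and all 9 passed the filter on low counts that left 22486 genes for testing. MAT2A was chosen on its arsenite response, which differed between cells with wild-type TXNL1 and cells with the D162R R234D mutant once a pair of outlying libraries was left out. Its values in those lines are therefore given as a description, with no test, and are given with and without that pair.

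Every library came from HEK293T cells in which TXNL1, a thioredoxin-like protein that binds the proteasome, had been knocked out. The knockout cells carried an empty vector (vector), wild-type TXNL1 (TXNL1-WT), TXNL1 with the substitutions D162R and R234D that disrupt proteasome binding (TXNL1-DR-RD), or TXNL1 with its thioredoxin cysteines replaced by serine (TXNL1-SxxS). Each of the 4 lines was left in DMSO or treated for 6 h with arsenite at 100 µM or with hydrogen peroxide (H2O2) at 600 µM, with 3 libraries per group and 36 in all. The knockout is a clonal line and the vector or TXNL1 was delivered by lentivirus, so lines differ by their stable population as well as by the transgene. By the authors' methods cells in 6-well plates were treated in triplicate, but the labels do not say whether the replicates were separate experiments. The p-values therefore measure the spread between these libraries of a line, and not between independently made lines.

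The methionine cycle turns methionine into S-adenosylmethionine (SAM), the methyl donor of the cell. MAT2A is the catalytic subunit of the enzyme that makes SAM outside the liver, and MAT2B is its regulatory subunit. Methyl transfer leaves S-adenosylhomocysteine, which AHCY splits into adenosine and homocysteine. Homocysteine is methylated back to methionine by MTR, kept active by MTRR, or passed through CBS and CTH to cysteine, the precursor of glutathione. METTL16 is an RNA methyltransferase that modifies hairpins in the MAT2A mRNA, and through them links splicing and stability of this mRNA to the supply of SAM.

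The METTL16-type letters TACAGAGAA or TACAGAAAA are shown here because they are the feature that ties MAT2A to METTL16 within the set. They stood at 6 places in the annotated MAT2A mRNA of 2817 bases (GENCODE release 44, GRCh38), all in the 3′ UTR in exon 9 on the plus strand of chromosome 2. Each is printed 5′ to 3′ with its flanks in DNA letters, with the matched letters in capitals.
site 1 (chr2:85543802-85543831): tggcgtaggcTACAGAGAAgccttcaagct
site 2 (chr2:85544589-85544618): tgtgatgtcaTACAGAGAAgtcacagggca
site 3 (chr2:85544774-85544803): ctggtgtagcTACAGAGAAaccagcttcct
site 4 (chr2:85544889-85544918): atggcgtaagTACAGAGAAgccatcacctc
site 5 (chr2:85545004-85545033): caaggtgtccTACAGAAAAaccttgggtta
site 6 (chr2:85545112-85545141): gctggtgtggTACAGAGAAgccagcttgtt
The bases that follow the capitals could pair, G-U pairs allowed, with a run in the bases before them over 4 to 6 positions at every site. Of 19061 mRNAs with a MANE Select model, 1519 (7.97%) held the letters at least once on the mRNA strand and 2 held them 6 times or more, MAT2A with 6 and MUCL3 with 23. Among 1947 such mRNAs within 10% of the length of MAT2A, 123 (6.32%) held the letters, and no other had more than 2. None of the other 8 genes held them. A match of letters is a description and not a measured site of methylation.

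The smallest library held 42072410 counts and the largest 174119002, around a median library of 66016833. CPM are counts scaled to the library's total after adjustment of that total by TMM. The outlying libraries were TXNL1-WT arsenite replicate 1 and TXNL1-WT H2O2 replicate 2. Their log2 CPM spread around the median of their group with an SD of 0.55 and 0.62. In the other 34 libraries this SD was 0.082 to 0.19. TXNL1 mRNA stood at 30.6 ± 1.77 CPM (SD, n = 3) in untreated vector cells, at 54.4 ± 3.15 in TXNL1-WT, at 62.9 ± 3.5 in TXNL1-DR-RD and at 53.4 ± 1.65 in TXNL1-SxxS. Of the markers of the cell line, INA reached 12.1 to 27.2 CPM, NEFL 0.58 to 3.12 CPM and NEFM at most 0.3 CPM, while PTPRC, ALB and PECAM1, markers of other cell types, stayed at or below 0.3 CPM. With arsenite NEFL and INA fell in vector cells, by 0.97 and 0.29 on the log2 scale. Of the 3 markers of the cell line 2 passed edgeR's test there, both lower, and 1 did not pass. The part of this shift in the results was not tested. MAT1A, the liver isoenzyme of MAT2A, did not exceed 0.31 CPM.

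In the outlying libraries several genes of the set stood apart from their replicates. MTR was at 0.46 times the mean of the other replicates in the arsenite library and 0.45 times in the H2O2 library. MTRR was at 0.68 and 0.67 times, AHCYL1 at 0.74 and 0.77 times, and MAT2A at 0.73 and 0.87 times. CTH was at 0.95 and 0.89 times, METTL16 at 0.82 and 0.80 times and MAT2B at 0.76 and 0.86 times. CBS was at 0.78 and 1.19 times, and AHCY was higher, at 1.07 and 1.39 times. The part of these libraries in the results is given by values with and without them.

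Per kilobase of exon, AHCY and MAT2A were the most abundant of the set in untreated vector cells. AHCY was at 114 ± 1.13 CPM per kb and MAT2A at 91.2 ± 2.8 CPM per kb (SD, n = 3). AHCYL1, a relative of AHCY without its hydrolase activity that binds inositol trisphosphate receptors, followed at 32.5 ± 0.33 CPM per kb. MAT2B was at 13 ± 0.32 and METTL16 at 11 ± 0.15 CPM per kb. CTH, MTRR, MTR and CBS lay lowest, at 7.16 ± 0.19, 6.12 ± 0.18, 5.46 ± 0.25 and 4.05 ± 0.57 CPM per kb. After arsenite this order changed in vector cells: CTH reached 61.4 ± 1.77 CPM per kb and passed MAT2A, which was at 21.3 ± 0.9 CPM per kb.

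**Figure D1:**
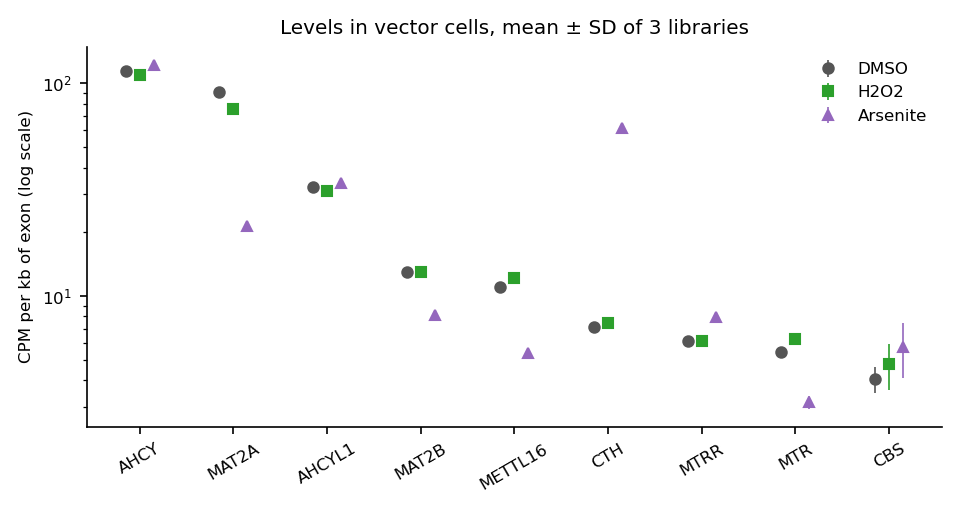
Levels of the 9 genes in vector cells, in CPM per kilobase of exon on a log axis, after DMSO, H2O2 or arsenite (mean ± SD of 3 libraries). CTH moves from 7.16 to 61.4 CPM per kb with arsenite and MAT2A from 91.2 to 21.3, while AHCY stays near 114.

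Arsenite lowered the mRNAs for making SAM and raised the mRNA of the enzyme that ends transsulfuration. In vector cells 6 of the 9 genes changed by edgeR's quasi-likelihood test (Benjamini-Hochberg adjusted p under 0.05 over all 22486 genes): CTH and MTRR rose, and MAT2A, METTL16, MTR and MAT2B fell. Of all genes tested, 43.4% passed the same test, 22.1% higher and 21.4% lower, so a large part of the transcriptome moved as well. The median log2 fold change was 0.06 over the 9 genes and 0.04 over all genes tested.

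MAT2A (ENSG00000168906, chr2:85539168-85545281, plus strand) was at 400.6, 403 and 423.5 CPM in the untreated vector libraries and at 98.9, 91.1 and 97 CPM after arsenite. The groups did not overlap. The log2 fold change was -2.10 ± 0.08 (SE), 4.28-fold lower, with an adjusted p of 2.0e-18 (edgeR). In TXNL1-SxxS cells MAT2A was at 317, 338.8 and 341.3 CPM untreated and at 104.9, 100.4 and 103.7 CPM after arsenite. Its log2 fold change there was -1.69 ± 0.08 with an adjusted p of 2.3e-16 (edgeR). The gene's count sums spliced mRNA and transcripts that keep an intron: 735 of its 4485 exon bases (16.4%) belong only to transcripts annotated as noncoding. A further limit is that 562 exon bases (12.5%) also lie in exons of GGCX on the opposite strand, and whether counting used strand is not given in the sources used here.

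In the lines that MAT2A was chosen on, its untreated levels were 329.3, 337.8 and 340.9 CPM in TXNL1-WT and 442.5, 443.2 and 445.8 CPM in TXNL1-DR-RD. After arsenite they were 73.8, 99.5 and 102.5 CPM in TXNL1-WT and 90.5, 85.5 and 88.7 CPM in TXNL1-DR-RD. The untreated libraries of these lines lay far apart. The treated ranges overlapped only because the outlying TXNL1-WT library, at 73.8 CPM, lay below every treated TXNL1-DR-RD library. The log2 fold changes were -1.87 ± 0.08 in TXNL1-WT and -2.33 ± 0.08 in TXNL1-DR-RD. Without both outlying libraries they were -1.76 ± 0.05 (2 treated libraries) and -2.35 ± 0.05.

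**Figure D2:**
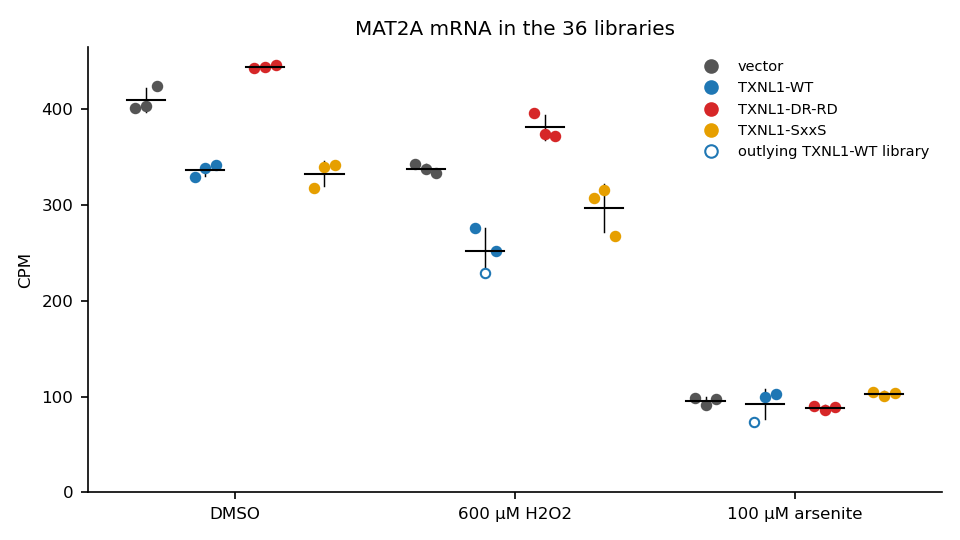
MAT2A mRNA in CPM in each of the 36 libraries by line and treatment. Points are libraries, open where the library is an outlying one, horizontal bars are group means and vertical bars are SD. Untreated levels range from 317 to 445.8 CPM by line, and arsenite levels from 73.8 to 104.9 CPM.

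MAT2B (ENSG00000038274, chr5:163503114-163519558, plus strand) fell in every line, by a smaller amount. In vector cells it went from 68.6, 66.4 and 65.4 CPM to 40.2, 41.9 and 42.8 CPM, with no overlap. The log2 fold change was -0.68 ± 0.08 in vector cells, -0.64 ± 0.08 in TXNL1-WT, -0.75 ± 0.08 in TXNL1-DR-RD and -0.71 ± 0.08 in TXNL1-SxxS. The largest adjusted p among them was 5.7e-08 (edgeR, TXNL1-WT). The table gives MAT2B 5135 exon bases against 8700 in GENCODE release 44, so its level per kilobase depends on the annotation.

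METTL16 (ENSG00000127804, chr17:2405562-2511891, minus strand) fell to 0.49 times its untreated level in vector cells. It was at 97.6, 100.1 and 98.2 CPM untreated and at 48.5, 49.5 and 46.7 CPM after arsenite. Its log2 fold changes were nearly equal in the 4 lines, at -1.03, -1.05, -1.06 and -1.01 in vector, TXNL1-WT, TXNL1-DR-RD and TXNL1-SxxS, each ± 0.07. All passed the test in edgeR, with a largest adjusted p of 1.9e-12.

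The hydrolase gene moved little. AHCY (ENSG00000101444, chr20:34280268-34311802, minus strand) was at 438.3 to 447.1 CPM in untreated vector cells and at 467.1 to 476 CPM after arsenite. Its log2 fold change was 0.09 in vector cells (95% interval -0.07 to 0.26, adjusted p 0.379 by edgeR). It passed the test only in TXNL1-WT cells, at 0.20 ± 0.08 with an adjusted p of 0.0416 (edgeR), and at 0.14 ± 0.05 with an adjusted p of 0.0171 (edgeR) without both outlying libraries. Of 17 alternatives 10 lost the call, and over all of them that adjusted p ranged from 0.0015 to 0.221 (edgeR or DESeq2). The difference of TXNL1-WT from TXNL1-DR-RD was not past the threshold (adjusted p 0.416, edgeR). AHCYL1 (ENSG00000168710, chr1:109984765-110023742, plus strand) passed it in no line, with log2 fold changes of -0.11 to 0.10.

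The 2 genes of homocysteine remethylation went opposite ways. MTR (ENSG00000116984, chr1:236795260-236921278, plus strand), the cobalamin-dependent methionine synthase, was at 99.7, 107.9 and 108 CPM in untreated vector cells and at 55.6, 62.8 and 63.9 CPM after arsenite. Its log2 fold change was -0.79 ± 0.21 in vector cells with an adjusted p of 0.00242 (edgeR), and -1.18, -0.63 and -0.89 in TXNL1-WT, TXNL1-DR-RD and TXNL1-SxxS. The TXNL1-WT value rests in part on the outlying library at 28 CPM beside replicates at 59.9 and 60.7 CPM, and was -0.92 ± 0.08 without both. MTRR (ENSG00000124275, chr5:7851186-7906025, plus strand), the reductase that reactivates MTR, rose from 38.6, 39.8 and 41 CPM to 50.4, 50.6 and 54.1 CPM in vector cells. The log2 fold change was 0.38 ± 0.11 with an adjusted p of 0.00597 (edgeR). It also rose in TXNL1-DR-RD, by 0.31, and in TXNL1-SxxS, by 0.45. In TXNL1-WT it was 0.26 ± 0.11 with an adjusted p of 0.0503 (edgeR), and without both outlying libraries 0.40 ± 0.05 with an adjusted p of 1.1e-08 (edgeR).

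CTH (ENSG00000116761, chr1:70411218-70439851, plus strand), the lyase that releases cysteine from cystathionine, gave the largest change of the set. In vector cells it was at 16.8, 17.4 and 17.7 CPM untreated and at 143.4, 149.3 and 151.8 CPM after arsenite. The log2 fold change was 3.10 ± 0.07, 8.57-fold higher, with an adjusted p of 8.5e-25 (edgeR). It rose 8.37-fold in TXNL1-DR-RD and 8.75-fold in TXNL1-SxxS. In TXNL1-WT the rise was 6.66-fold: the treated libraries were at 116.7, 122.9 and 122.7 CPM, below every treated library of the other 3 lines, the lowest of which was at 143.4 CPM. The outlying TXNL1-WT library, at 116.7 CPM, stood near its replicates.

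CBS (ENSG00000160200, chr21:43053191-43076943, minus strand), which makes cystathionine, was less certain. In vector cells it was at 23.4, 27.9 and 31.2 CPM untreated and at 31.7, 33.5 and 52.3 CPM after arsenite, and the log2 fold change of 0.51 ± 0.23 did not pass the test (adjusted p 0.0741, edgeR). It passed only in TXNL1-WT, at 0.62 ± 0.23 with an adjusted p of 0.0231 (edgeR), and over all alternatives that adjusted p ranged from 0.00983 to 0.242. In TXNL1-DR-RD it was 0.54 (adjusted p 0.054) and in TXNL1-SxxS 0.35 (adjusted p 0.224) by edgeR. The reference assembly holds a false copy of CBS on chromosome 21 that has a row of its own, and CBS took 52.3% to 78.9% of the counts of the pair. With both rows summed the log2 fold change was 0.28 in vector cells (adjusted p 0.29), 0.50 in TXNL1-WT (adjusted p 0.0397), 0.51 in TXNL1-DR-RD (adjusted p 0.0425) and 0.35 in TXNL1-SxxS (adjusted p 0.173), by edgeR.

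**Figure D3:**
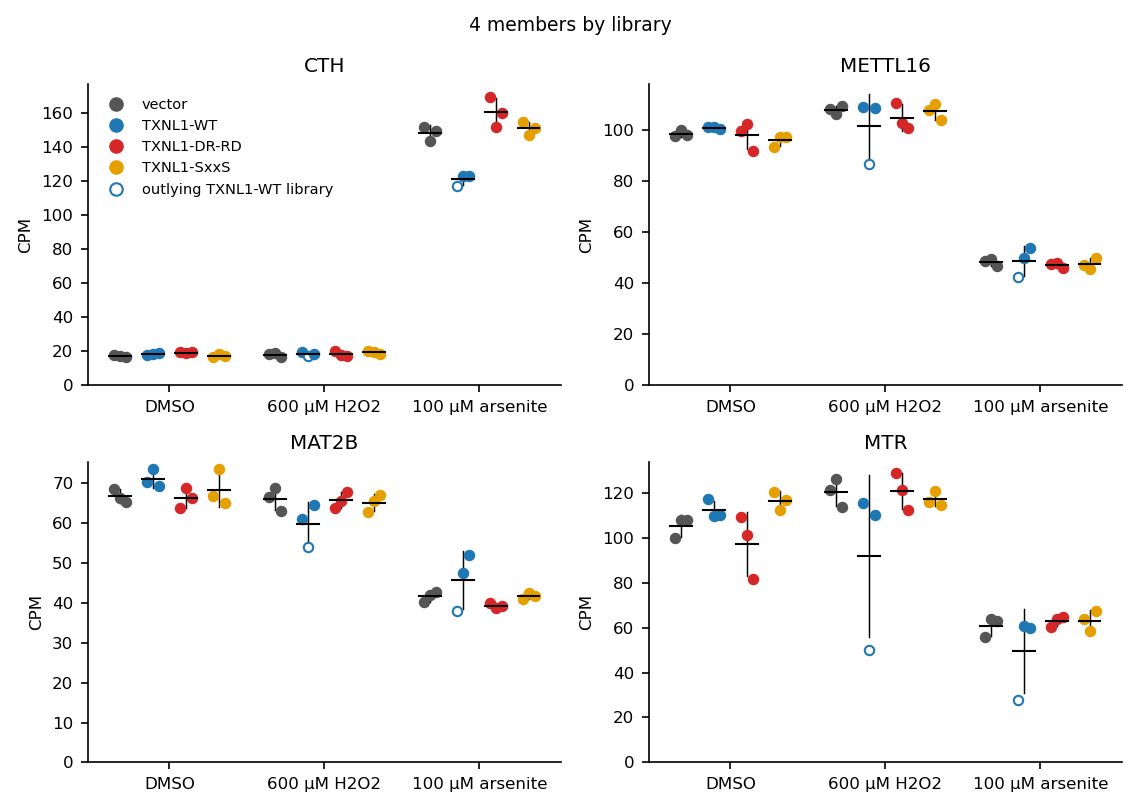
CTH, METTL16, MAT2B and MTR mRNA in CPM in each library by line and treatment. Points are libraries, open for both outlying ones, with group mean and SD. CTH libraries lie at 116.7 CPM and above after arsenite and at 20.2 CPM and below otherwise, and the low MTR points of 28 and 50.2 CPM are the outlying libraries.

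Counts by line followed the same genes. In TXNL1-WT, 6 of the 8 genes other than MAT2A changed, 3 up (CTH, AHCY, CBS) and 3 down, where 53.6% of all genes did, 28.7% higher and 24.9% lower. Without both outlying libraries 7 of the 8 changed, with MTRR added, against 52.9% of all genes, 26.5% higher and 26.4% lower. In TXNL1-DR-RD, 5 of the 8 changed, 2 up and 3 down, against 44% of all genes, 22.5% higher and 21.5% lower. In TXNL1-SxxS, 6 of 9 changed, 2 up and 4 down, against 43.6% of all genes, 22.1% higher and 21.5% lower. These shares are read against a background in which a large part of all genes changed, and nothing particular to the set is drawn from them.

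**Figure D4:**
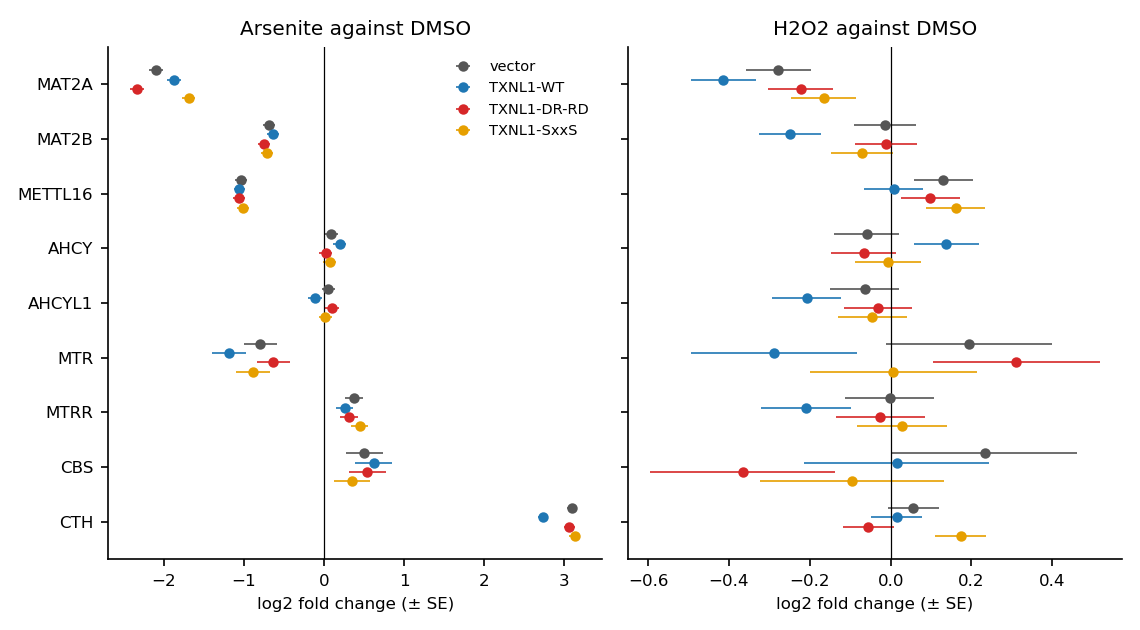
log2 fold change (± SE of the fit) of the 9 genes by line for arsenite and for H2O2 against DMSO, each on its own horizontal scale. With arsenite MAT2A lies between -2.33 and -1.69 and CTH between 2.74 and 3.13, and with H2O2 the values lie between -0.41 and 0.31.

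H2O2 moved the set little. Over all 36 libraries no member passed the test in vector cells (0 of 9, edgeR, where 1 had an unadjusted p under 0.05 and DESeq2 called 1), in TXNL1-DR-RD (0 of 8, edgeR, with 0 unadjusted and 0 by DESeq2) or in TXNL1-SxxS (0 of 9, edgeR, with 3 unadjusted and 0 by DESeq2). The background was 1.35%, 1.03% and 1.02% of all genes. In TXNL1-WT 1 of 8 passed, MAT2B at -0.25 ± 0.08 with an adjusted p of 0.0414 (edgeR), against 8.06% of all genes. That call is not firm, since leaving out a library at a time gave 0 to 3 calls and the outlying H2O2 library is in the comparison.

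MAT2A was lower after H2O2 in all 4 lines. In vector cells it was at 342, 337.3 and 333.1 CPM, below all 3 untreated libraries, with a log2 fold change of -0.28 ± 0.08 and an adjusted p of 0.0899 (edgeR). In TXNL1-SxxS it was at 306.7, 314.9 and 267.5 CPM, also below the untreated libraries, at -0.17 ± 0.08 with an adjusted p of 0.503 (edgeR). As a description only, it was -0.41 ± 0.08 in TXNL1-WT and -0.22 ± 0.08 in TXNL1-DR-RD. Neither set of treated libraries overlapped the untreated libraries of its line.

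The lines share an estimate of spread. Leaving out both outlying libraries lowered the standard errors for H2O2 of the genes of the set other than CBS in every line, and raised that of CBS, from 0.229 to 0.251 in vector cells. In vector cells MAT2A then fell by 0.29 ± 0.04 on the log2 scale with an adjusted p of 2.0e-05 (edgeR), against 9.87% of all genes called, and over all alternatives this adjusted p ranged from 5.05e-06 to 0.284. In TXNL1-SxxS MAT2A fell by 0.17 with an adjusted p of 0.014, while METTL16 rose by 0.16 with an adjusted p of 0.0118 and CTH by 0.17 with an adjusted p of 0.0448 (edgeR), against 6.56% of all genes. In TXNL1-DR-RD MTR rose by 0.31 with an adjusted p of 0.00436 (edgeR), against 10.4%. In TXNL1-WT MAT2B fell by 0.18 with an adjusted p of 0.0194 (edgeR), against 8.98%. These comparisons share their DMSO libraries with the arsenite comparisons of the same line.

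In untreated cells the level of MAT2A, which helped to choose it, is described by line. TXNL1-DR-RD was highest (442.5 to 445.8 CPM), then vector (400.6 to 423.5 CPM), while TXNL1-WT (329.3 to 340.9 CPM) and TXNL1-SxxS (317 to 341.3 CPM) overlapped each other and neither of the others. Between TXNL1-SxxS and vector, the pair that MAT2A was not chosen on, the log2 difference was -0.30 ± 0.08 with an adjusted p of 0.603 (edgeR, 36 libraries). Without both outlying libraries, neither of which is in this comparison, it was -0.30 ± 0.04 with an adjusted p of 0.000151 (edgeR), against 0.142% of all genes, and over all alternatives this adjusted p ranged from 6.63e-06 to 1. As a description, TXNL1-WT differed from vector by -0.28 ± 0.08 and TXNL1-DR-RD by 0.12 ± 0.08. No gene of the set passed the test in any line over 36 libraries. edgeR called 0 of 8 members in TXNL1-WT, 0 of 8 in TXNL1-DR-RD and 0 of 9 in TXNL1-SxxS, with 0, 1 and 1 at an unadjusted p under 0.05 and 0 in each by DESeq2, against 0.196%, 0.0267% and 0.0178% of all genes.

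Across the 12 groups the mean level of MAT2A ran from 443.8 ± 1.73 CPM in untreated TXNL1-DR-RD to 88.2 ± 2.5 CPM in arsenite-treated TXNL1-DR-RD, so a single line held both ends. Below untreated TXNL1-DR-RD came untreated vector at 409 ± 12.6, H2O2-treated TXNL1-DR-RD at 380.5 ± 13.2 and H2O2-treated vector at 337.4 ± 4.44 CPM, each apart from the one before. H2O2-treated vector, untreated TXNL1-WT at 336 ± 6 and untreated TXNL1-SxxS at 332.4 ± 13.4 CPM overlapped. H2O2-treated TXNL1-SxxS at 296.4 ± 25.3 and TXNL1-WT at 252.1 ± 23.3 CPM overlapped as well. Of the arsenite groups, TXNL1-SxxS at 103 ± 2.35, vector at 95.7 ± 4.05 and TXNL1-DR-RD at 88.2 ± 2.5 CPM did not overlap one another. In TXNL1-WT, at 92 ± 15.8 CPM, the outlying library at 73.8 CPM lay below every arsenite library of vector and TXNL1-DR-RD. Its replicates, at 99.5 and 102.5 CPM, lay above all libraries of both of these groups. The order of the lines TXNL1-DR-RD, vector and TXNL1-SxxS after arsenite was the reverse of their order untreated. The TXNL1-DR-RD and TXNL1-WT values in DMSO and arsenite helped to choose MAT2A. Their places in these orders are therefore a description, with no test.

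Whether the arsenite response itself differed between lines was tested by the interaction of line and treatment. Over all 36 libraries edgeR called 0% of all genes in each of the 3 arsenite interactions, with 1432 (4 lines), 3603 (TXNL1-WT against TXNL1-DR-RD) and 487 (TXNL1-SxxS against vector) genes at an unadjusted p under 0.05 and 35, 169 and 0 genes called by DESeq2. Of the set, edgeR called 0 of 8, 0 of 8 and 0 of 9, with 1 gene each at an unadjusted p under 0.05, and DESeq2 called 1, 1 and 0. The gene was CTH in the comparisons of 4 lines and of TXNL1-WT with TXNL1-DR-RD, and MAT2A in that of TXNL1-SxxS with vector.

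For MAT2A the fall in TXNL1-SxxS was smaller than in vector cells by 0.41 ± 0.11 on the log2 scale (95% interval 0.17 to 0.64), with an adjusted p of 1 (edgeR, 36 libraries). Without both outlying libraries, which are in neither line, the difference was 0.41 ± 0.06 (0.28 to 0.53) with an adjusted p of 0.00272 (edgeR). MAT2A was then the only gene called of 22486, 0.00445% of all genes. Its spread in that fit was estimated in part from the TXNL1-WT and TXNL1-DR-RD libraries it was chosen on. The call is therefore not independent of the choice, and 2 of 24 alternatives made it. Over all alternatives its adjusted p ranged from 0.000375 to 1, and the difference from 0.37 to 0.43. This test uses the same DMSO libraries as the comparison of untreated TXNL1-SxxS with vector, where MAT2A was lower in TXNL1-SxxS. As a description, the fall in TXNL1-WT was smaller than in TXNL1-DR-RD by 0.46 ± 0.11 over 36 libraries and by 0.59 ± 0.07 without both outlying ones.

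CTH rose less in TXNL1-WT than in TXNL1-DR-RD, by 0.33 ± 0.09 on the log2 scale, which did not pass the test over 36 libraries (adjusted p 0.161, edgeR). Without both outlying libraries the difference was 0.32 ± 0.08 with an adjusted p of 0.0271 (edgeR), against 1.39% of all genes called, and over 4 lines the adjusted p was 0.0344 (edgeR), against 0.205% of all genes. For TXNL1-WT against TXNL1-DR-RD 3 of 23 alternatives made the call. Over all of them the adjusted p ranged from 0.0271 to 0.522 (edgeR or DESeq2). Between TXNL1-SxxS and vector the difference for CTH was 0.03 (95% interval -0.15 to 0.21). No member passed in the interaction of line and H2O2, where edgeR called 0 of 8 with 0 at an unadjusted p under 0.05 and 0 by DESeq2, against 0.685% of all genes over 36 libraries and 1.51% without both outlying ones.

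**Figure D5:**
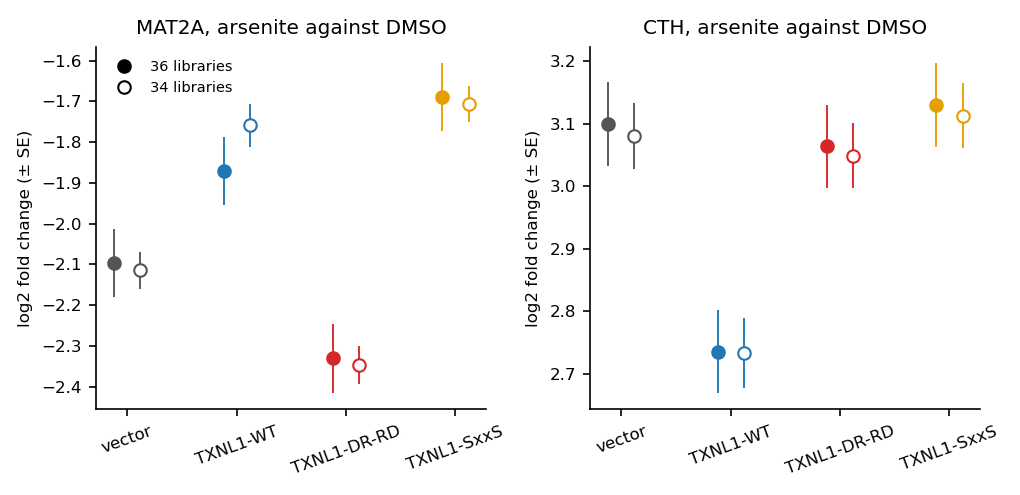
log2 fold change (± SE) of MAT2A and CTH for arsenite against DMSO in each line, over 36 libraries (filled) and without both outlying TXNL1-WT libraries (open). The vertical axes do not start at 0. MAT2A in TXNL1-WT moves from -1.87 to -1.76 when they are left out, and CTH there stays at 2.74 and 2.73.

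Genes around the cycle were taken from lists and given for arsenite in vector cells. Methionine salvage, which recycles the methylthio group left by polyamine synthesis, was listed together with that synthesis. The joint list had 0 of 9 genes higher and 4 lower, where 22.1% of all genes were higher and 21.4% lower. Its median log2 fold change was -0.175 against 0.04 over all genes. AMD1, which decarboxylates SAM for polyamine synthesis, fell by 1.10 ± 0.11 on the log2 scale and ODC1, ornithine decarboxylase, by 0.86 ± 0.05. MTAP, the phosphorylase of methylthioadenosine, fell by 0.71 ± 0.09 and ADI1, an enzyme of the later salvage steps, by 0.36 ± 0.09. In TXNL1-WT, TXNL1-DR-RD and TXNL1-SxxS, 3, 7 and 3 of the 9 fell and none rose, where 24.9%, 21.5% and 21.5% of all genes fell.

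Methyl supply by folate, betaine and cobalamin had 2 genes higher and 2 lower of 8 tested, beside 43.4% of all genes called, with BHMT and BHMT2 left out by the filter. SHMT2, the mitochondrial serine hydroxymethyltransferase, rose by 0.54 ± 0.07 and MMADHC, which directs cobalamin to its enzymes, by 0.44 ± 0.04. MMACHC, which processes cobalamin, fell by 0.49 ± 0.14. The median was -0.025. Of 5 other genes that handle SAM and S-adenosylhomocysteine, ADK, which phosphorylates the adenosine that AHCY releases, rose by 0.29 ± 0.06 and none fell, beside 43.4% of all genes called, with a median of 0.05.

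Of 15 genes that write, erase or read N6-methyladenosine or belong to the CFIm complex, 6 were higher and 4 lower, beside 43.4% of all genes called, with a median of 0.17. YTHDC1, the nuclear reader, rose by 1.30 ± 0.05 and YTHDF1, a cytoplasmic reader, by 1.04 ± 0.05. WTAP, a subunit of the main writer complex, rose by 0.89 ± 0.04, and ALKBH5, a demethylase, fell by 0.69 ± 0.05. These moved while METTL16, which is a separate writer, fell. Of 5 genes of cysteine use and glutathione synthesis, GSS, glutathione synthetase, rose by 0.41 ± 0.09 and GCLC, the catalytic subunit of the rate-limiting ligase, fell by 0.58 ± 0.11, beside 43.4% of all genes called, with a median of 0.15.

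After H2O2, AMD1 fell by 0.43 ± 0.11 and AHCYL2, a relative of AHCYL1, by 0.53 ± 0.16 in TXNL1-WT, while ALKBH5 rose by 0.20 ± 0.05. They are named because they passed the test there (edgeR, adjusted p 0.0115, 0.0357 and 0.0147) and so were chosen after their values were seen. The outlying H2O2 library is in this comparison. Their lists had 1 of 9, 1 of 5 and 1 of 15 genes called, and the other lists 0 of 8 and 0 of 5. Of all genes 8.06% were called, so nothing particular to the lists is drawn from these calls. With only the groups compared edgeR called 1 of all 22486 genes there.

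By log2 CPM over the 36 libraries, the genes most like MAT2A among 10245 with a mean of at least 10 CPM were PRMT6 (Pearson r 0.986), VKORC1L1 (0.985), TMEM165 (0.982), SAP30L (0.982) and DIPK2A (0.981). With both outlying libraries left out PRMT6 stayed first and SAP30L and TMEM165 ranked 3 and 4, while VKORC1L1 ranked 6 and DIPK2A 53. The 36 points share 3 treatments, and 579 genes exceeded an r of 0.95 while the median r was 0.06. Within the set, r with MAT2A was 0.96 for METTL16, 0.95 for MAT2B and 0.85 for MTR, and -0.97 for CTH and -0.68 for MTRR. Over the other 34 libraries r was -0.93 for MTRR, and -0.58 for AHCYL1 against -0.145 over all 36.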

How the data were processed

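Messenger RNA was sequenced in 36 libraries of 12 groups (4 lines, 3 treatments) on a DNBseq platform, strand-specific per the labels. Reads were aligned to GRCh38 with qAlign of QuasR, and the authors deposited raw counts per gene with exon lengths. The annotation, strand setting and counting of mates are not given in the sources used here. DESeq2 is named in the submitters' processing notes. GENCODE release 44, matched by 61415 gene identifiers, gave coordinates and transcripts.

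Genes with at least 10 total counts over the 3 untreated vector libraries were kept (22486). Another 20240 genes with a count were left out. Counts were scaled by TMM and tested with edgeR 4.0.16 in R 4.3.3, by robust quasi-likelihood with a mean for each group over all libraries. p-values were adjusted by Benjamini-Hochberg and called under 0.05. Levels are CPM on library totals adjusted by TMM, and a log2 fold change is the fitted one with its SE. The procedure was tested on simulated counts with 200 genes changed by 1 on the log2 scale. It recovered 189 of them (94.5%), with 14 false calls of 203. A simulated comparison without change gave 0 calls. The simulated counts held no outlying libraries, so how the procedure handles those was not tested. Counts of replicates differed beyond sampling noise in all 36 pairs, with a chi-square per degree of freedom of at least 3.1.

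The members and gene lists were chosen with earlier results of these data known. MAT2A was left out of every test that compares the TXNL1-WT or TXNL1-DR-RD libraries in DMSO or arsenite, on which it was chosen. Those libraries still entered the estimate of its spread in its other tests, except with only the groups compared. From each list up to 4 called genes with the largest change with arsenite in vector cells were named, and the 5 genes with the highest Pearson r with MAT2A. The values of a called gene in these lists are not reported here. Alternatives were DESeq2 1.42.0, other scalings and filters, halved counts, a replicate block, only the groups compared, and libraries left out. The labels do not say what a replicate number marks. Same-numbered libraries deviated together for H2O2 in TXNL1-DR-RD (r 0.306, 0.127 and 0.315), but no fit paired the libraries within a line. A sum of CBS with its copy was added after seeing the data.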

Additional observations from a re-analysis of the deposited data

Results flagged for a closer look

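Over 36 libraries no gene of the set passed edgeR's test of a difference in arsenite response between lines, and CTH and MAT2A passed it without both outlying TXNL1-WT libraries. The spread of MAT2A in that fit came in part from the libraries it was chosen on. The arsenite response of MAT2A differed between TXNL1-SxxS and vector by 0.4083 on the log2 scale (edgeR, adjusted p 0.00272, against 1 over 36 libraries and 0.000375 with only the groups compared). The arsenite response of CTH differed between TXNL1-WT and TXNL1-DR-RD by -0.3152 on the log2 scale (edgeR, adjusted p 0.0271, against 0.161 over 36 libraries), and it also passed with DESeq2 (adjusted p 0.031) and without TXNL1-WT H2O2 replicate 2 alone (adjusted p 0.029, edgeR). Only these 3 of 23 alternatives made the call for TXNL1-WT against TXNL1-DR-RD. Over all of them the adjusted p ranged from 0.0271 to 0.522 (edgeR or DESeq2). Over the 4 lines together CTH had an adjusted p of 0.0344 (edgeR), against 0.53 over 36 libraries.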

How the results depend on the processing

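For arsenite against DMSO the number of genes of the set called stayed within 1.5 times under every alternative, and leaving out a library at a time gave 6 to 7 in vector, 4 to 7 in TXNL1-WT, 4 to 6 in TXNL1-DR-RD and 6 in TXNL1-SxxS. Of the values of single genes under an alternative, 2090 kept their call or moved by less than their SE, 40 passed the threshold newly, 28 lost it, 29 uncalled or untested ones moved by more than their SE, and no called value changed sign. For H2O2 the counts were 1 with DESeq2, 1 without both outlying libraries and 3 with only the groups compared in vector cells, where the main count is 0 and leaving out a library gave 0 to 1. In TXNL1-WT, against 1, total counts, no filter and only the groups compared gave 0 each, and leaving out a library gave 0 to 3. Without both outlying libraries 1 gene was called in TXNL1-DR-RD and 3 in TXNL1-SxxS, and only the groups compared gave 1 in TXNL1-SxxS. For TXNL1-SxxS against vector in DMSO these settings gave 1 and 2, and leaving out a library 0 to 1, with the call on MAT2A made without TXNL1-WT Arsenite replicate 1 (adjusted p 0.0399, edgeR). For the arsenite interactions DESeq2 and the fit without both outlying libraries each gave 1 over 4 lines and 1 for TXNL1-WT against TXNL1-DR-RD, where leaving out a library gave 0 to 1 (CTH, without TXNL1-WT H2O2 replicate 2). TXNL1-SxxS against vector gave 1 without both and 1 with only the groups compared. The cause of these shifts was not tested. In TXNL1-WT the AHCY call with arsenite was lost without any of DMSO replicates 1, 2 and 3 or Arsenite replicates 1 and 3, and the CBS call without DMSO replicates 1 and 2 or Arsenite replicate 3, while MTRR passed without either outlying library. In TXNL1-WT total counts, no filter and only the groups compared also lost the AHCY and CBS calls. DESeq2, and its scaling used in edgeR, lost the AHCY call as well. The MAT2B call with H2O2 in TXNL1-WT was lost without any of the DMSO replicates or H2O2 replicate 2. The MTR call in TXNL1-DR-RD was lost without TXNL1-DR-RD DMSO replicate 1 (-0.54, adjusted p 0.0641, edgeR), and the MTRR call there was lost with total counts (adjusted p 0.0782), with no filter (0.0539) and without TXNL1-DR-RD DMSO replicate 3 (0.103) or Arsenite replicate 3 (0.0501), by edgeR. Over all genes, only the groups compared gave 6416 calls for arsenite in TXNL1-WT against 12060, and 1 against 1813 for H2O2 there. For H2O2 in vector, TXNL1-DR-RD and TXNL1-SxxS the calls ranged from 94 to 2808 (main 303), 102 to 2328 (231) and 74 to 1621 (229). For TXNL1-WT, TXNL1-DR-RD and TXNL1-SxxS against vector in DMSO they ranged from 11 to 673 (44), 1 to 17 (6) and 3 to 220 (4), for the H2O2 interaction from 119 to 340 (154), and for the arsenite interactions from 0 (main) to 46 over 4 lines, 313 for TXNL1-WT against TXNL1-DR-RD and 9 for TXNL1-SxxS against vector.

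Deviations of same-numbered treated and DMSO libraries correlated at -0.327 to 0.368, over 0.1 in 5 of 24 pairs. In H2O2 against DMSO in TXNL1-DR-RD all 3 pairs passed 0.1, and in the other 7 comparisons they did not. The values given for that TXNL1-DR-RD comparison come from fits without pairs. A block that gave each replicate number an effect shared by all lines and treatments again called 0 genes of the set there, and 240 of all genes against 231. Such a block does not pair the libraries of a single line, so the effect of pairing was not tested. For arsenite, with the number as a block, 7 genes of the set were called with arsenite in vector against 6, 6 in TXNL1-WT, 6 in TXNL1-DR-RD against 5, and 6 in TXNL1-SxxS, where CBS passed newly in vector (adjusted p 0.0377) and TXNL1-DR-RD (0.0287) by edgeR.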
